A study of Mus musculus with 12 samples.

Results

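The genes described here encode the lethal contents of the cytotoxic granule and one of its membrane proteins: the granzymes Gzma, Gzmb, Gzmk and Gzmm, the pore former Prf1 and the granule protein Nkg7. They were chosen by name, with earlier results of these data known, as the probe sets whose only gene symbol is one of these names. They are 6 of the 22180 genes that the arrays name. Each was read by 1 probe set. The study hybridised RNA of mouse cells to 12 Affymetrix whole-transcript arrays in 5 groups, to compare the transcription of invariant natural killer T (iNKT) cells between mouse strains. Mice labelled BALBC (BALB/c) gave 3 arrays of ROR- cells and 3 of iNKT17 cells, and mice labelled B6 gave 2 arrays each of ROR- cells, iNKT17 cells and gamma-delta 17 (γδ17) cells. No allele, treatment, age or organ is named for any group, and the labels do not say what the ROR- cells are beyond that name. Whether the replicates are different animals is not recorded, so p-values here cover the spread among these arrays alone, which could be technical. The protocol speaks of frozen tissue where the labels speak of cells.

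iNKT cells are alpha-beta T cells that recognise lipids on CD1d, and γδ17 cells carry a gamma-delta receptor; iNKT17 and γδ17 cells are both known for making interleukin 17. Killer lymphocytes store perforin and granzymes, bound to a proteoglycan matrix, in modified lysosomes that are moved to the contact with a target cell and fused with the plasma membrane. Perforin, the product of Prf1, forms pores that let granzymes enter the target. Granzyme B (Gzmb) cleaves after aspartate and activates caspases, granzymes A (Gzma) and K (Gzmk) cleave after basic residues, granzyme M (Gzmm) cleaves after methionine or leucine, and Nkg7 is a granule membrane protein needed for full release.

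The promoters of Nkg7 and Gzma, which varied most between the groups, and of Gzmb, which did not follow them, are shown because the results turn on these genes. Each sequence holds the 250 bases before the gene's start, 5′ to 3′ on the gene's strand, from RefSeq on GRCm38.p6, and capitals mark matches to the motifs that were searched.
Nkg7, chr7:43436888-43437137, + strand: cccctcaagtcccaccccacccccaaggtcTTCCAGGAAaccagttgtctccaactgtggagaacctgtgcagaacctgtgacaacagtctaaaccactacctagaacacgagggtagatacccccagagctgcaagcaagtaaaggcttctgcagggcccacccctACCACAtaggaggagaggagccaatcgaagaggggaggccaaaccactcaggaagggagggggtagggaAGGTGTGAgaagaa
Gzma, chr13:113100982-113101231, - strand: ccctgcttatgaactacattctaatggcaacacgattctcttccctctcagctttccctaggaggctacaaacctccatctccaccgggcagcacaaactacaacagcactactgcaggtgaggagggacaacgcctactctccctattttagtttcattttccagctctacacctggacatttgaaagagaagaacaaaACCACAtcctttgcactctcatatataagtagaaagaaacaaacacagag
Gzmb, chr14:56262335-56262584, - strand: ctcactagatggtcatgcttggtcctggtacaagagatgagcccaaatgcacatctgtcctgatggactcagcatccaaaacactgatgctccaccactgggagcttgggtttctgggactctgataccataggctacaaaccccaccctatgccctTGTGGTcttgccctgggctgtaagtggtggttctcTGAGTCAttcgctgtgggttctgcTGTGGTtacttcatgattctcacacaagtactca

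Matches were searched on both strands from 250 bases before to 50 after the start, in the promoters of all 6 genes. A T-box motif, AGGTGTGA, the kind of sequence bound by T-bet and Eomes, was in the promoter of Nkg7 at position -14 and in none of the others; 1.28% of 32851 RefSeq promoters of this length hold it. A RUNX motif, TGTGGT, written ACCACA on the opposite strand, was found in Nkg7 at -83, in Gzma at -50, in Prf1 at -130, in 1 of 2 promoters of Gzmm at -247 and in Gzmb at -93 and -34; 16.8% of promoters hold it. Gzmb also held the AP-1 motif TGANTCA at -58, which 7.81% of promoters hold. The STAT motif TTCNNNGAA was in Nkg7 at -220, in Gzmb at 38 after the start, outside the stretch shown, and in the same Gzmm promoter at -86; 8.3% of promoters hold it. The cyclic AMP response motif TGACGTCA, held by 1.79%, was in none of them, and the promoter of Gzmk held none of the 5 motifs. The marked matches do not overlap. A match is a description of letters and not a binding site.

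Levels below are deposited log2 values of 1 probe set, so they are compared between arrays and never between genes. A level of 3.45, the 30th percentile of the named probe sets, is called the dim level; it is no measured background, but the size of a change is uncertain where a group lies below it. Changes are differences of log2 means with their standard error (SE) from a limma fit to all 12 arrays, and a gene was called when its Benjamini-Hochberg adjusted p over 16667 tested genes was below 0.05. All 6 genes passed the filter on dim values; Gzma was above the dim level on 7 of 12 arrays and the others on 12 of 12. These are bulk RNA samples, in which fewer cells of a type and less RNA per cell cannot be told apart.

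Arrays were checked against lists of cell markers. T cell genes averaged 11.11 to 11.48 on every array, and the measured type 17 genes averaged 6.92 to 8.74 on the iNKT17 and γδ17 arrays against 4.20 to 5.46 on the ROR- arrays. The highest of these ROR- values was BALB/c replicate 2, where Il23r, the interleukin 23 receptor, read 7.0 where replicates 1 and 3 read 3.05 and 3.37. One array stood apart: γδ17 replicate 1 read 8.76 for Cd8a and 8.24 for Cd8b1, the CD8 chains, against 5.47 and 4.30 on γδ17 replicate 2, and its neutrophil and myeloid markers averaged 6.15, with 7 of 7 above the dim level, against 3.45 to 3.69 on the other 11 arrays. The neutrophil genes S100a8 and S100a9 read 9.30 and 9.0 on it, and at most 2.44 and 3.98 elsewhere. Changes between γδ17 and other cells are therefore given with and without it for Nkg7, Gzma, Gzmb, Prf1 and the named pathway genes. The B6 iNKT17 arrays had the next highest means of the CD8 chains, 6.53 and 6.185, against 4.64 to 5.58 on the remaining arrays. The part of CD8 signal in the results was not tested. Markers of conventional natural killer (NK) cells averaged 4.89 to 5.79 on the ROR- arrays and 4.05 to 4.53 on the iNKT17 and γδ17 arrays; 7 of 10 listed genes were measured, among them Klre1, at 4.51 to 7.32 on the ROR- arrays, and Ncr1, at 3.94 to 4.74 there and 3.47 to 4.31 on the others. Their part in the results below was not tested.

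**Figure D1:**
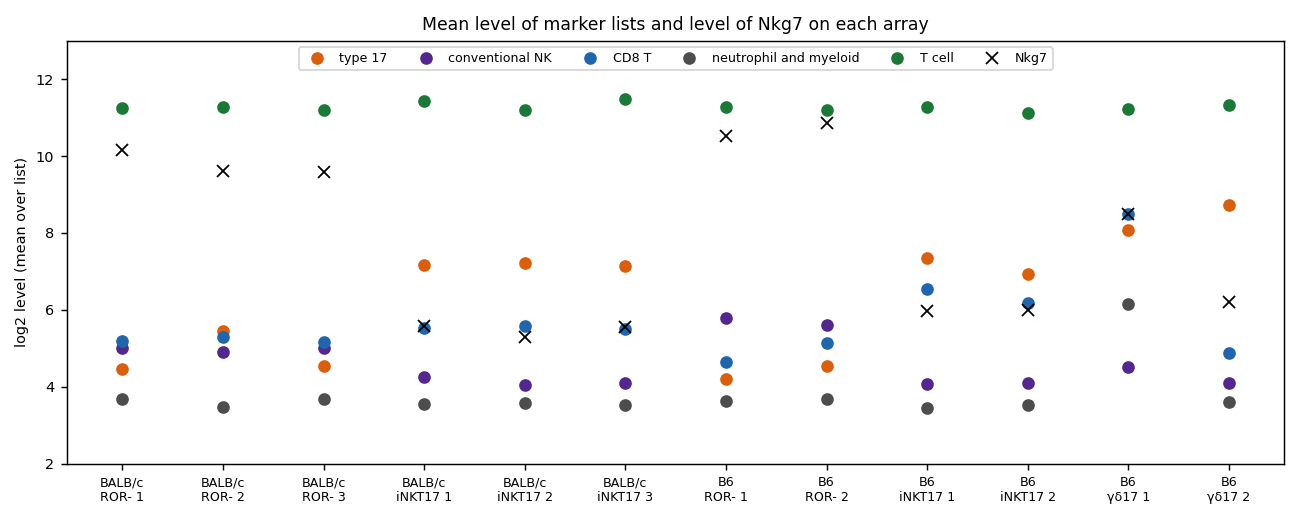
Mean log2 level of 5 marker lists (coloured points) and the level of Nkg7 (crosses) on each of the 12 arrays, by group and replicate. T cell genes stay between 11.11 and 11.48. γδ17 replicate 1 carries the highest CD8 (8.50) and neutrophil and myeloid (6.15) means. The B6 iNKT17 arrays have the next highest CD8 means (6.53 and 6.185).

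The members fell into a pair that separated the groups and 4 genes that did so little or not at all. Nkg7 and Gzma were lower in iNKT17 cells than in ROR- cells of both strains, and lower in γδ17 than in ROR- cells of B6. Gzmb was read at 9.56 or more on all 12 arrays, and neither Gzmb, Prf1, Gzmk nor Gzmm passed the test in any of the 8 comparisons. Over the 12 arrays Gzma ranged over 6.23 log2 units and Nkg7 over 5.56, more than 99.9% and 99.8% of tested genes. Gzmb ranged over 1.81 units, more than 93.1% of genes. Prf1 (0.58), Gzmm (0.47) and Gzmk (0.41) ranged over less than the median gene (0.71). Gzmk read 4.04 to 4.45, near the array medians of 4.10 to 4.30, and whether its transcript was detected was not tested.

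**Figure D2:**
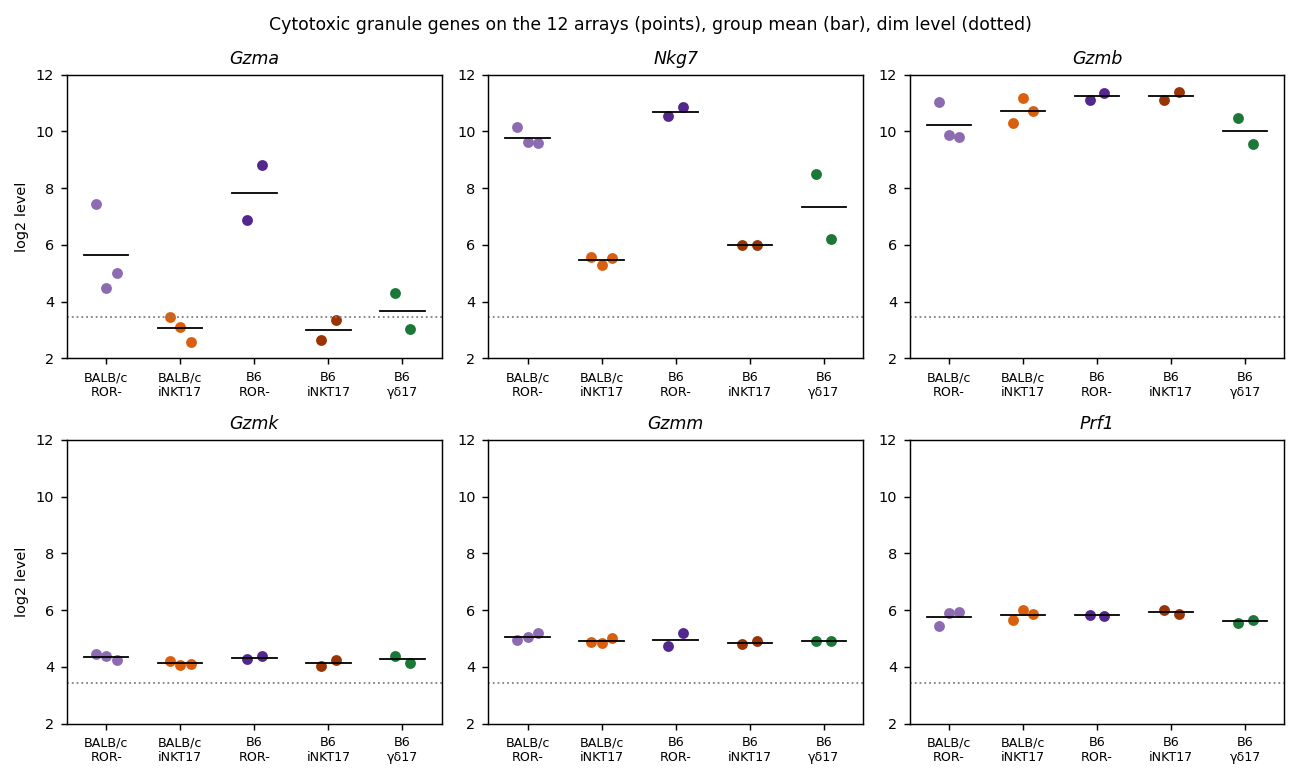
Log2 level of each of the 6 genes on the 12 arrays (points) with group means (bars); the dotted line is the dim level of 3.45. Nkg7 and Gzma separate ROR- arrays from iNKT17 arrays, Gzmb stays between 9.56 and 11.37, and Gzmk, Gzmm and Prf1 lie nearly level.

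Nkg7 read 10.15, 9.61 and 9.58 on the BALB/c ROR- arrays and 5.58, 5.30 and 5.55 on the BALB/c iNKT17 arrays. In B6 it read 10.53 and 10.86 in ROR- cells, 5.98 and 5.99 in iNKT17 cells, and 8.49 and 6.21 in γδ17 cells. Every ROR- array was above every other array, both γδ17 arrays were above all 5 iNKT17 arrays, and neighbouring groups in the order B6 ROR-, BALB/c ROR-, γδ17, B6 iNKT17 and BALB/c iNKT17 did not overlap. The fall from ROR- to iNKT17 cells was -4.51 ± 0.33 (SE) as the mean of both strains, a 22.7-fold lower level, with an adjusted p of 3.2e-06 in limma. By strain it was -4.30 ± 0.42 in BALB/c (adjusted p = 6.17e-05, limma) and -4.71 ± 0.52 in B6 (adjusted p = 0.000165, limma). These calls were kept whichever array was left out.

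Gzma read 7.44, 4.46 and 5.0 on the BALB/c ROR- arrays and 3.47, 3.11 and 2.58 on the BALB/c iNKT17 arrays. In B6 it read 6.86 and 8.80 in ROR- cells, 2.64 and 3.36 in iNKT17 cells, and 4.32 and 3.03 in γδ17 cells. Every ROR- array was above every iNKT17 and γδ17 array, but the ROR- arrays differed widely among themselves: the group SD was 1.58 in BALB/c (n = 3) and 1.37 in B6 (n = 2), and the 2 strains overlapped. BALB/c ROR- replicate 1, the highest of its group for Gzma, was also the highest of it for Nkg7 and Gzmb. The iNKT17 group means, 3.05 in BALB/c and 3.0 in B6, lay below the dim level, so the sizes that follow are uncertain.

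The fall of Gzma from ROR- to iNKT17 cells was -3.71 ± 0.56 as the mean of both strains (adjusted p = 0.000785, limma), and this call held whichever array was left out. In B6 it was -4.83 ± 0.86 (adjusted p = 0.00533, limma), and it was lost without B6 ROR- replicate 2 (-3.86, adjusted p = 0.0585) and without B6 iNKT17 replicate 1 (-4.47, adjusted p = 0.0517). In BALB/c the fall of -2.58 ± 0.70 passed only just (adjusted p = 0.0498, limma). That call was kept only without BALB/c ROR- replicate 2 or either B6 ROR- array and was lost without any of the other 9 arrays, at adjusted p up to 0.170; without BALB/c ROR- replicate 1 the estimate was -1.68. The NK marker means given above run higher on the B6 than on the BALB/c ROR- arrays, as the mean Gzma level does. Klre1 did so, at 7.32 and 7.30 in B6 and 4.51 to 5.87 in BALB/c ROR- cells. Not all listed genes did: Ncr1 (4.74 and 3.94 against 4.18 to 4.73) and Eomes (3.83 and 3.97 against 3.83 to 4.19) overlapped between the strains. The part of these markers in the Gzma level was not tested.

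Counted together, 2 of 6 members, Nkg7 and Gzma, were called lower and none higher between iNKT17 and ROR- cells when both strains were averaged, where 12.3% of all tested genes were called and 5.81% were called lower. The same pair was called in BALB/c, against 6.97% of genes (2.91% lower), and in B6, against 5.99% (3.16% lower). The median change of the 6 members was -0.17 as the mean of both strains, beside 0.00 for all genes. Because the members were chosen with earlier results of these data known, these counts describe them and are no test of the set. Arrays of the groups did not overlap for 3 members in BALB/c (Nkg7, Gzma and Gzmk, all lower), where this held for 22.2% of genes. They did not overlap for 4 members in B6 (the same genes lower and Prf1 higher), where it held for 46.4% of genes, so with 2 arrays a side the separation alone says little.

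Gzmb read 11.03, 9.86 and 9.79 on the BALB/c ROR- arrays and 10.30, 11.16 and 10.71 on the BALB/c iNKT17 arrays. In B6 it read 11.12 and 11.35 in ROR- cells, 11.11 and 11.37 in iNKT17 cells, and 10.46 and 9.56 in γδ17 cells. The ROR- and iNKT17 arrays overlapped in both strains. The difference between iNKT17 and ROR- cells was 0.25 ± 0.26 as the mean of both strains, with a 95% interval of -0.33 to 0.83 (adjusted p = 0.647, limma), and 0.01 ± 0.41 in B6. In BALB/c it was 0.50 ± 0.33, with an interval of -0.24 to 1.23 (adjusted p = 0.501, limma). Without BALB/c ROR- replicate 1, the highest of its group, the BALB/c difference was 0.90 (adjusted p = 0.0895) and the mean of both strains 0.45 (adjusted p = 0.202). Gzmb therefore did not pass in either strain, and a higher level in iNKT17 cells of up to the interval's bound is not excluded by these arrays.

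Prf1 read 5.43, 5.90 and 5.94 on the BALB/c ROR- arrays, 5.66, 6.01 and 5.85 on the BALB/c iNKT17 arrays, 5.84 and 5.78 in B6 ROR- cells, 6.0 and 5.87 in B6 iNKT17 cells, and 5.56 and 5.66 in γδ17 cells. The iNKT17 and ROR- arrays of BALB/c overlapped, those of B6 did not, and both γδ17 arrays lay below the other B6 arrays. The difference between iNKT17 and ROR- cells was 0.10 ± 0.12 (interval -0.15 to 0.36, adjusted p = 0.683, limma). Prf1 is also on 1 probe set that carries several symbols, which was not used.

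Gzmm read 4.93, 5.06 and 5.20 in BALB/c ROR- cells, 4.89, 4.83 and 5.03 in BALB/c iNKT17 cells, 4.73 and 5.19 in B6 ROR- cells, 4.80 and 4.92 in B6 iNKT17 cells, and 4.91 and 4.93 in γδ17 cells. Groups next to each other in mean level overlapped, while all BALB/c ROR- arrays lay just above the B6 iNKT17 and γδ17 arrays. Its difference between iNKT17 and ROR- cells was -0.13 ± 0.11 (interval -0.36 to 0.11, adjusted p = 0.548, limma).

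Gzmk read 4.45, 4.39 and 4.23 in BALB/c ROR- cells, 4.20, 4.05 and 4.12 in BALB/c iNKT17 cells, 4.27 and 4.37 in B6 ROR- cells, 4.04 and 4.23 in B6 iNKT17 cells, and 4.39 and 4.15 in γδ17 cells. Within each strain the iNKT17 arrays lay just under the ROR- arrays without overlap. The difference was -0.21 ± 0.09 as the mean of both strains (interval -0.41 to -0.01), with an unadjusted p of 0.04 and an adjusted p of 0.183 in limma, so it did not pass. Gzmk lies beside Gzma on chromosome 13 in the RefSeq gene order, and the pair differed in size of change by the values just given; that difference was not tested.

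**Figure D3:**
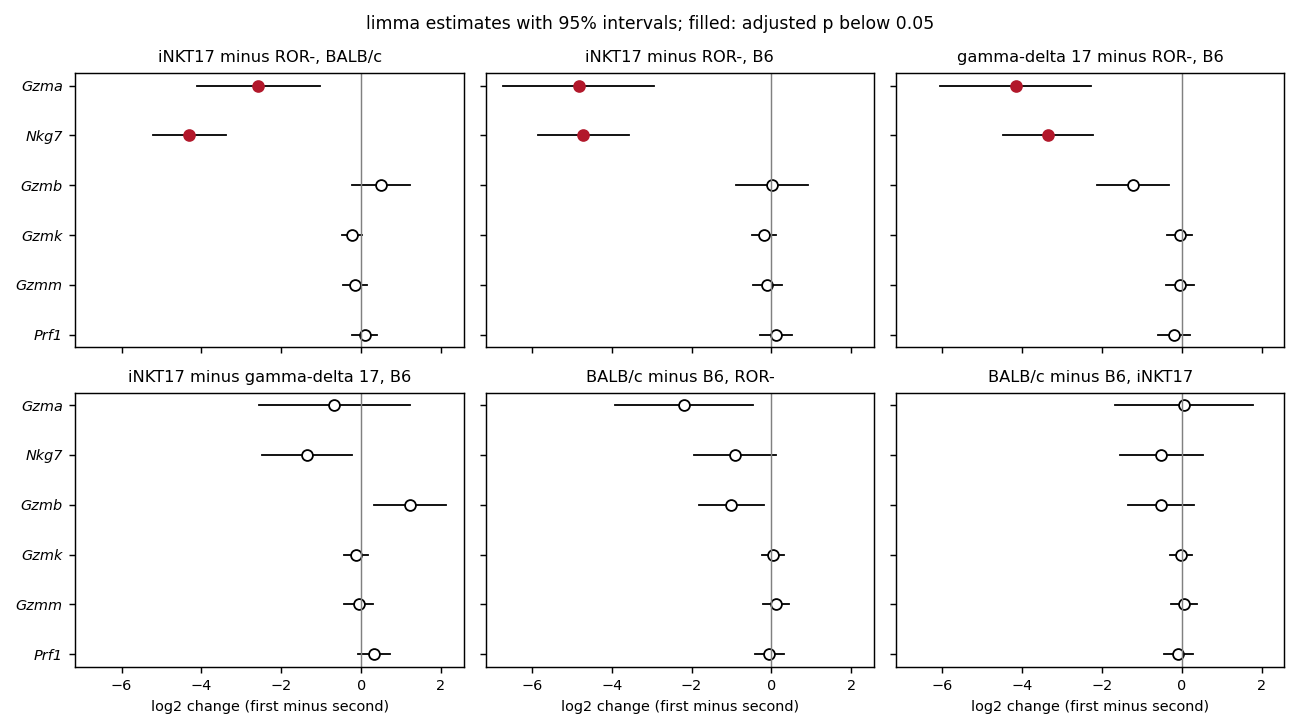
Log2 change of each gene (points) with its 95% interval (lines) in 6 comparisons, the first-named group minus the other; filled points are genes with an adjusted p below 0.05. Nkg7 and Gzma are filled in the 3 comparisons with ROR- cells of the same strain, and none of the 6 genes is filled in the comparisons of strains or of iNKT17 with γδ17 cells.

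In γδ17 cells of B6, Nkg7 was lower than in ROR- cells by -3.35 ± 0.52, a 10.2-fold difference (adjusted p = 0.00201, limma). Its 2 arrays, 8.49 and 6.21, lay far apart, and the higher was replicate 1, the array with raised CD8 and myeloid markers. Without that array the fall was -4.49 (adjusted p = 4.28e-06) and without the other it was -2.20 (adjusted p = 0.000702). Gzma was lower by -4.16 ± 0.86 (adjusted p = 0.0134, limma), and without γδ17 replicate 1 by -4.80 (adjusted p = 0.0263). That call was lost without γδ17 replicate 2 (-3.51, adjusted p = 0.110) and without B6 ROR- replicate 2 (-3.19, adjusted p = 0.139). These were 2 of 6 members called, both lower, against 6.02% of all genes called and 3.41% called lower. This comparison uses the same B6 ROR- arrays as that of iNKT17 with ROR- cells in B6, so the falls in both are not independent.

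Gzmb was lower in both γδ17 arrays than in both B6 ROR- arrays, by -1.22 ± 0.41, and did not pass (unadjusted p = 0.0119, adjusted p = 0.121, limma). It was called without BALB/c ROR- replicate 1 (adjusted p = 0.0394), and without γδ17 replicate 1 it stood at -1.67 (adjusted p = 0.084). Arrays of these groups did not overlap for 4 of 6 members, all lower in γδ17 cells (Nkg7, Gzma, Gzmb and Prf1), where this held for 48.5% of genes. Prf1 stood at -0.20 ± 0.18 (adjusted p = 0.638, limma), and at -0.15 without γδ17 replicate 1 (adjusted p = 0.879).

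iNKT17 and γδ17 cells of B6 were compared directly, and 0 of 6 members were called by limma, with 0.168% of all genes called. An unadjusted p below 0.05 was found for 2 members and for 8.5% of all genes. Nkg7 was lower in iNKT17 than in γδ17 cells by -1.36 ± 0.52 (adjusted p = 0.506). This gap rests on γδ17 replicate 1: without it the difference was -0.22 ± 0.25 (adjusted p = 0.998), and without γδ17 replicate 2 it was -2.51 (adjusted p = 0.00141). Gzmb was higher in iNKT17 cells by 1.23 ± 0.41 (adjusted p = 0.421), and by 1.68 ± 0.47 without γδ17 replicate 1 (adjusted p = 0.350). Gzma stood at -0.67 ± 0.86 (adjusted p = 0.855, limma), and at -0.0255 without γδ17 replicate 1. Prf1 stood at 0.32 ± 0.18 (adjusted p = 0.669, limma), and at 0.27 without that array. Arrays did not overlap for 3 of 6 members (Gzmb and Prf1 higher, Nkg7 lower), against 41% of genes. This comparison and that of γδ17 with ROR- cells share the γδ17 arrays.

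Between strains, none of the 6 members was called by limma in iNKT17 cells, where 1.48% of genes were called. No member had an unadjusted p below 0.05 there, while 12.6% of all genes did. Gzma differed there by 0.05 ± 0.79 (BALB/c minus B6), below the dim level in both groups, and Gzmb by -0.52 ± 0.37 (interval -1.34 to 0.30). Nkg7 was lower in BALB/c by -0.51 ± 0.47 (adjusted p = 0.738) with arrays that did not overlap, as for 31.7% of genes.

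In ROR- cells none of the 6 was called between strains by limma either, with 1.22% of genes called. An unadjusted p below 0.05 was found for 2 members and for 11.9% of all genes. The 2 were Gzma (-2.20 ± 0.79, BALB/c minus B6, adjusted p = 0.287) and Gzmb (-1.01 ± 0.37, adjusted p = 0.305). Nkg7 stood at -0.92 ± 0.47 (adjusted p = 0.478). Arrays did not overlap for Gzmb and Nkg7, lower in BALB/c, against 26.3% of genes. Gzma passed without BALB/c ROR- replicate 1 (-3.10, adjusted p = 0.0274), and Nkg7 passed without either γδ17 array (-0.92, adjusted p = 0.0483 each). The difference between strains in the change from ROR- to iNKT17 cells was tested as an interaction in limma. It was called for 0 of 6 members, against 0.084% of genes. An unadjusted p below 0.05 was found for 0 members and for 4.01% of genes. The largest difference among the members was Gzma at 2.25 ± 1.11 (adjusted p = 0.999).

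The other genes of the granule pathway were taken from 6 lists of 100 genes, of which 91 were measured and 85 tested. Among the remaining granzymes, Gzmc is the measured gene next to Gzmb on chromosome 14, within a cluster of granzyme genes. It read 8.89, 8.29 and 8.44 in BALB/c ROR- cells, 6.87, 6.55 and 6.51 in BALB/c iNKT17 cells, 9.76 and 9.61 in B6 ROR- cells, 6.43 and 6.25 in B6 iNKT17 cells, and 7.01 and 6.28 in γδ17 cells. All ROR- arrays were above all others. Gzmc fell by -2.62 ± 0.16 from ROR- to iNKT17 cells (adjusted p = 7.18e-07, limma), by -1.90 ± 0.20 in BALB/c and -3.35 ± 0.25 in B6, while Gzmb was not called. In ROR- cells it was lower in BALB/c than in B6 by -1.14 ± 0.23 (adjusted p = 0.0349); that call was lost without any 1 of 7 arrays, at adjusted p 0.0548 to 0.222. Gzmd, Gzmf, Gzmg and Gzmn were below the dim level on all arrays and not tested; granzymes of this cluster are alike in sequence, and whether the probe set of Gzmc also reads its neighbours was not tested.

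**Figure D4:**
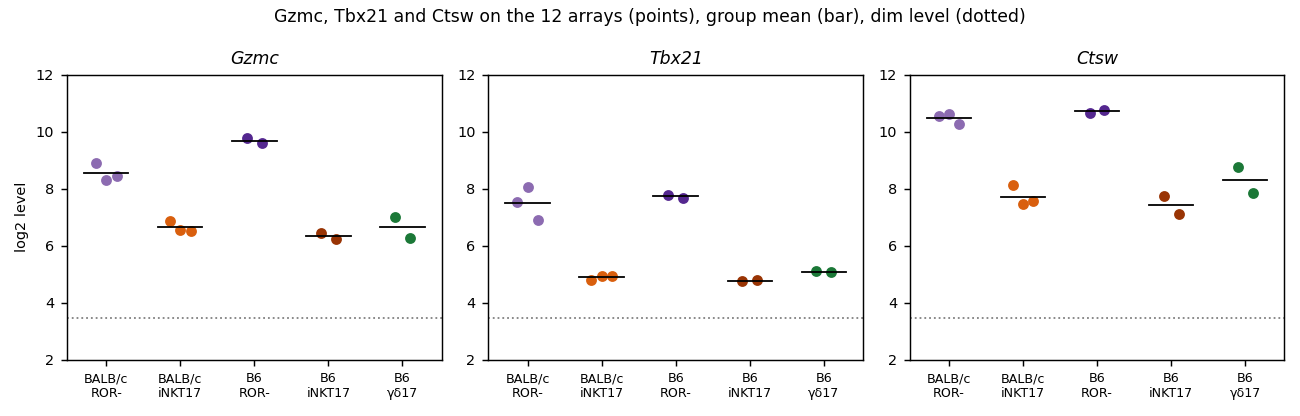
Log2 level of Gzmc, Tbx21 and Ctsw on the 12 arrays (points) with group means (bars) and the dim level of 3.45 (dotted). For each gene all 5 ROR- arrays lie above all iNKT17 and γδ17 arrays.

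Of the 12 tested genes of the granule matrix and of granzyme processing, 1 rose and 1 fell from ROR- to iNKT17 cells averaged over strains, and 10 did not pass (median -0.15), beside 12.3% of all tested genes called. Without BALB/c iNKT17 replicate 3, either B6 ROR- array or B6 iNKT17 replicate 1, 1 gene was called. Ctsw, a cathepsin of cytotoxic lymphocytes, fell by -3.02 ± 0.20 (adjusted p = 1.25e-06, limma), and the lysosomal membrane protein gene Lamp2 rose by 0.42 ± 0.10 (adjusted p = 0.02), a call lost without any 1 of 4 arrays (adjusted p 0.0507 to 0.0926). Srgn, the proteoglycan core of the granule, stood at -0.21 (adjusted p = 0.157) and Ctsc, the protease that activates granzymes, at -0.23 (adjusted p = 0.262).

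Of the 28 tested genes of granule transport, docking and fusion, 7 rose, 3 fell and 18 did not pass (median 0.10), beside 12.3% of all genes called. The 10 calls became 6 without B6 ROR- replicate 1 and 6 without B6 iNKT17 replicate 2. Hps1, Hps6, Stx11 and Vamp7, named for this reason after their values were seen, lost their calls without any 1 of 6, 8, 7 and 2 arrays. Sytl2, a Rab27 effector of docking, fell by -3.02 ± 0.16 and Lyst, the trafficking gene mutated in the beige mouse, by -2.93 ± 0.17. Myo1e, a class I myosin, rose by 1.71 ± 0.08 and the Rab27 effector Sytl3 by 1.06 ± 0.20. Rab27a itself rose by 0.61 ± 0.12 (adjusted p = 0.00545, limma). By strain, Rab27a (0.84, adjusted p = 0.00517, limma) and Sytl3 (1.11, adjusted p = 0.0191, limma) were called in BALB/c and not in B6. The BALB/c call of Sytl3 was lost without any 1 of 3 arrays. The fusion genes Unc13d (-0.21, adjusted p = 0.382) and Stxbp2 (-0.12, adjusted p = 0.606) did not pass.

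Of the 10 tested inhibitors of granzymes and of perforin damage, 2 rose, 3 fell and 5 did not pass (median -0.07), beside 12.3% of all genes called. The 5 calls became 3 without BALB/c iNKT17 replicate 1 or 2, B6 ROR- replicate 2 or B6 iNKT17 replicate 1. Serpinb1a, an inhibitor of neutrophil serine proteases, rose by 4.53 ± 0.30, with 9.18 to 9.73 on all 7 iNKT17 and γδ17 arrays and 4.04 to 6.26 on the ROR- arrays. Serpinb6a rose by 0.58 ± 0.09, and Ist1 of the membrane repair machinery fell by 0.44. Serpinb6b fell by 0.42 on average, a call lost without any 1 of 9 arrays. Serpinb9, the mouse inhibitor of granzyme B, fell by 0.39 (adjusted p = 0.0229, limma), a call lost without any 1 of 4 arrays. In B6 the change of Serpinb9 was -0.71 (adjusted p = 0.0176, limma), and -0.83 to -0.59 with single arrays left out. In BALB/c Serpinb9 was not called. The average for Serpinb6b joins opposite directions: its group mean went from 6.22 to 5.02 in B6 (-1.21 ± 0.18 (SE), adjusted p = 0.00197, limma) and from 5.44 to 5.81 in BALB/c, on arrays that did not overlap (0.36 ± 0.15, adjusted p = 0.222). Serpinb6b was the only gene of the lists called in the interaction (1.57 ± 0.24, adjusted p = 0.0447) and was also higher in BALB/c than in B6 iNKT17 cells (0.79 ± 0.17, adjusted p = 0.0437); each call was lost without any 1 of the 10 arrays of the iNKT17 and ROR- groups.

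Of the 11 tested genes listed as death ligands and other effectors, 3 rose, 5 fell and 3 did not pass (median -0.65). This stands beside 12.3% of all genes called, and 8 were called whichever BALB/c array was left out. Storage of their products in granules was not measured. The chemokines Ccl5 and Xcl1 fell by -5.08 ± 0.23 and -4.64 ± 0.43, Ifng, interferon gamma, by -3.75 ± 0.58 and Fasl, the Fas ligand, by -3.33 ± 0.17. Crtam rose by 1.44 ± 0.19, and the cytokine genes Lta and Tnf rose by 1.23 ± 0.20 and 1.07 ± 0.18. The rise of Crtam was called in BALB/c (1.98, adjusted p = 0.000315, limma) and not in B6. Between strains, Fasl was lower in BALB/c than in B6 ROR- cells by -1.47 ± 0.25 (adjusted p = 0.0121, limma), which no longer passed once B6 ROR- replicate 1 was left out (adjusted p = 0.166). Crtam was higher in BALB/c than in B6 iNKT17 cells by 1.25 ± 0.27 (adjusted p = 0.0458), a call lost without any 1 of 7 arrays.

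Of the 23 tested transcription factors of the cytotoxic program, 4 rose, 9 fell and 10 did not pass (median -0.06), beside 12.3% of all genes called. The 13 calls became 8 without B6 iNKT17 replicate 2. Id2, Nfil3, Irf4 and Stat4, also named after their values were seen, lost their calls without any 1 of 8, 7, 3 and 2 arrays. Tbx21, which encodes T-bet, read 7.52, 8.04 and 6.89 in BALB/c ROR- cells, 4.79, 4.94 and 4.92 in BALB/c iNKT17 cells, 7.78 and 7.67 in B6 ROR- cells, 4.77 and 4.78 in B6 iNKT17 cells, and 5.12 and 5.06 in γδ17 cells. Its arrays divided as those of Nkg7 did, with all ROR- arrays high, and it fell by -2.78 ± 0.17 (adjusted p = 8.16e-07, limma). Eomes, the related T-box factor, fell by 0.94 but lay between 2.96 and 4.19 on all arrays, with both iNKT17 groups below the dim level. Bach2 fell by -1.23 ± 0.16 and Bhlhe40 by -0.95 ± 0.21, the latter at an adjusted p of 0.0614 with B6 ROR- replicate 2 left out and 0.0653 with B6 iNKT17 replicate 2 left out. Runx3, a RUNX factor of killer T cells, was read at 6.32 to 7.25 and was not called (0.35 ± 0.12, adjusted p = 0.0945), while Runx1 rose by 0.77 ± 0.10.

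**Figure D5:**
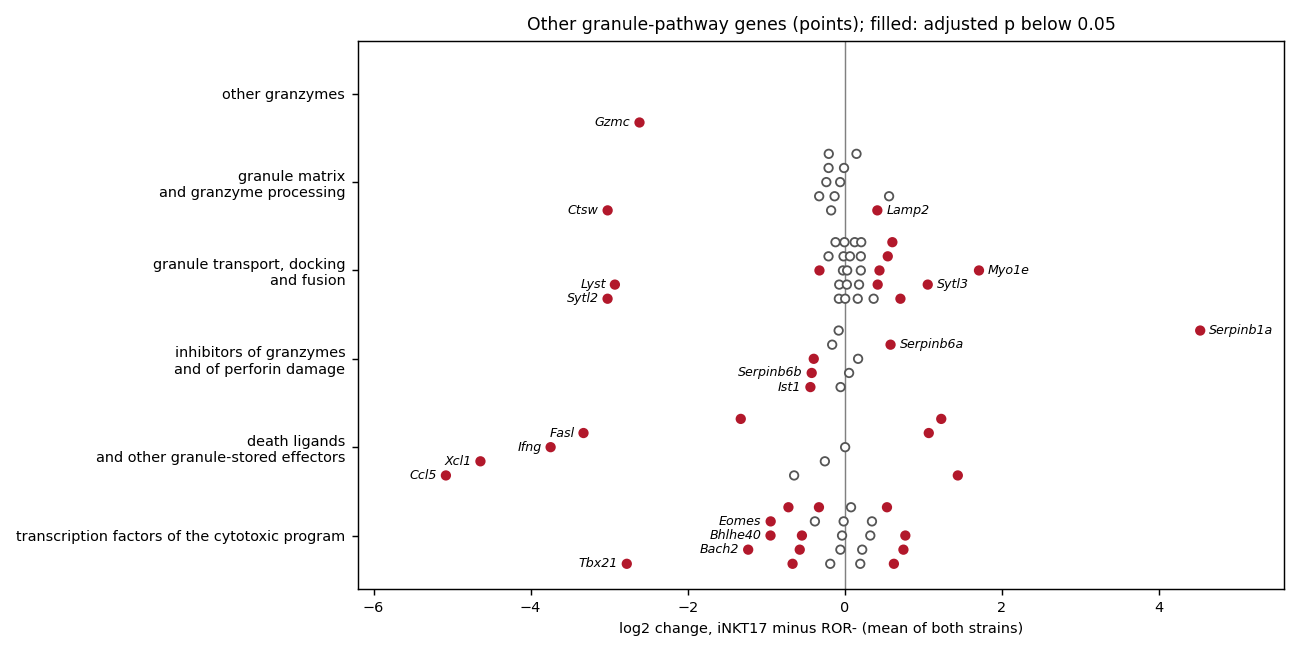
Log2 change from ROR- to iNKT17 cells, as the mean of both strains, of the tested genes of 6 granule-pathway lists (points, staggered vertically for legibility); filled points have an adjusted p below 0.05 and the largest are named. The changes run from -5.08 (Ccl5) to 4.53 (Serpinb1a), and most genes of the matrix and transport lists lie near 0.

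The same lists in γδ17 minus ROR- cells of B6 gave 3 lower of 12 matrix genes, 2 higher and 2 lower of 28 transport genes, 1 higher and 1 lower of 10 inhibitors, 2 higher and 5 lower of 11 effectors, and 1 higher and 4 lower of 23 transcription factors, beside 6.02% of all genes called. Without γδ17 replicate 1 the counts called were 1 matrix gene, 4 transport genes, 3 inhibitors, 5 effectors and 2 transcription factors. The matrix count was also 1 without either B6 ROR- array, and the effector count was 4 without B6 ROR- replicate 1 or γδ17 replicate 2. The transcription factor count was 2 without B6 ROR- replicate 2, and 3 without B6 ROR- replicate 1 or any 1 of the 5 iNKT17 arrays. Ctsw fell by -2.40 ± 0.31, Gzmc by -3.04 ± 0.25, Sytl2 by -2.83 ± 0.25 and Tbx21 by -2.63 ± 0.27, and Serpinb1a rose by 5.05 ± 0.46. Without γδ17 replicate 1 these changes were -2.84 for Ctsw, -3.41 for Gzmc, -3.0 for Sytl2, -2.66 for Tbx21 and 5.15 for Serpinb1a, all still called. Il17a, the interleukin 17 gene, was higher in γδ17 than in ROR- cells by 4.60 ± 0.47 and lower in iNKT17 than in γδ17 cells by -3.38 ± 0.47 (adjusted p = 0.018, limma), the latter lost without either B6 iNKT17 array or γδ17 replicate 2. Without γδ17 replicate 1 these were 4.97 and -3.75, both called. No gene of the 6 lists was called between iNKT17 and γδ17 cells in limma, while 4 matrix genes, 2 transport genes, 1 inhibitor and 4 transcription factors had an unadjusted p below 0.05, as 8.5% of all genes did. Leaving out γδ17 replicate 1 gave 1 called inhibitor, and leaving out γδ17 replicate 2 gave 2 called effectors.

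The genes whose 5 group means, each centred on its own average, were nearest to those of a member were found over 16667 genes by the root-mean-square (RMS) difference. For Nkg7, whose own group means departed from their average by an RMS of 2.06, these were Xcl1 (0.21), Plac8 (0.21) and Ms4a4b (0.24). For Gzma, with an RMS of 1.86, they were Ifitm3 (0.27), Fcer1g (0.33) and Ifitm1 (0.35), and Gzma and Nkg7 differed from each other by 0.61. For Gzmb, with 0.51, they were Cysltr1 (0.13), Gpr25 (0.17) and Trav9d-3 (0.19). Ifitm3 followed Gzma within BALB/c ROR- cells too, at 9.32, 7.25 and 7.26 on the arrays where Gzma read 7.44, 4.46 and 5.0. Gzmk, Gzmm and Prf1 departed from level by an RMS of only 0.10, 0.07 and 0.11, so that likeness to them is likeness to a flat line: their nearest were Mageb16, Platr30 and Vhl.

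Of the genes beside the members in the RefSeq gene order, Cldnd2, next to Nkg7 on chromosome 7, fell from ROR- to iNKT17 cells by -0.81 ± 0.15 (adjusted p = 0.00292, limma). It read 4.07 to 4.99 on the ROR- arrays and 3.66 to 4.14 on the others. Lim2 and Etfb, also near Nkg7, were not called (-0.05, adjusted p = 0.83, and 0.07, adjusted p = 0.788). Beside Gzmb, only Gzmc was called, and Atp12a stood at 0.02 (adjusted p = 0.939). No tested neighbour of Gzmm or Prf1 was called; the nearest to the threshold was Bsg, beside Gzmm, at 0.41 ± 0.15 (adjusted p = 0.0965).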

How the data were processed

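RNA of 12 samples was measured on Affymetrix whole-transcript arrays, 1 array per sample. The authors deposited 1 table of log2 values for 41345 probe sets, produced with the R package oligo per the submitters' processing notes. Not given in the sources used here were its version, summarisation, background correction and normalization. No source states the log base, which was taken as 2, the scale that oligo writes. Array medians lay between 4.10 and 4.30, and the values were used as deposited. Probe sets with 1 gene symbol (23521) were named from the platform annotation, the brightest by mean kept per gene. Genes above the dim level on at least 2 arrays were tested with limma 3.58.1 in R 4.3.3: lmFit and eBayes on group means, 8 contrasts, 7 residual and 4.50 prior degrees of freedom, checked on simulated data. With 2 or 3 arrays per group, their number limits the precision. Other genes were named as the largest called changes of each list (up to 4 in the mean of both strains, up to 2 elsewhere), fixed anchor genes, the nearest profiles and the nearest neighbours; Srgn, Ctsc, Unc13d, Stxbp2, Rab27a, Serpinb9, Lta, Tnf, Crtam, Runx1, Hps1, Hps6, Stx11, Vamp7, Id2, Nfil3, Irf4 and Stat4 were added after their values were seen. The members and lists were chosen with earlier results of these data known. In all, 21 other settings were tried: the dim filter, normalization, groups in the fit, array weights, variance shrinkage, probe sets per gene, a replicate block, and each array left out. A member that did not pass the dim filter of a setting had no test there and was not counted for it.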

Additional observations from a re-analysis of the deposited data

How the results depend on the processing

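Across 21 other settings, 940 of the members' tests kept their direction and side of the threshold, 20 were lost, 5 gained and 35 turned sign; the last were uncalled. The member count in BALB/c iNKT17 minus ROR- fell from 2 to 1 with no filter, quantile normalization, median centring, only the groups compared, trend with robust shrinkage, and the replicate block, always through Gzma (adjusted p 0.0509 to 0.135), and that in γδ17 minus ROR- fell to 1 with trend and robust shrinkage (Gzma, adjusted p = 0.0576). The labels do not say whether a replicate number marks a shared animal or day. Deviations of same-numbered arrays correlated between -0.46 and 0.465. This cannot settle the question, since between groups of 2 arrays both replicates necessarily give the same value. The replicate block moved the BALB/c member count only as stated and the genes called in the interaction from 14 to 6. That count was 9 with quantile normalization and 9 with median centring; genes called between ROR- strains went from 203 to 82, and those between iNKT17 and γδ17 from 28 to 2, with only the groups compared; those between iNKT17 strains went from 247 to 549 with array weights. Leaving out each array in turn gave 1 to 2 members in BALB/c, 1 to 2 in B6, 1 to 3 in γδ17 minus ROR-, 0 to 1 between ROR- strains and 0 to 1 between iNKT17 and γδ17. Over all genes it gave 1341 to 2051 in the mean of both strains, 742 to 1150 in BALB/c, 492 to 1058 in B6, 530 to 1151 in γδ17 minus ROR-, 0 to 15 in the interaction, 77 to 530 between iNKT17 strains, 68 to 259 between ROR- strains and 5 to 63 between iNKT17 and γδ17.

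The sign turned only for differences near 0. With quantile normalization Gzmm stood at -0.00064 between iNKT17 strains and 0.042 in iNKT17 minus γδ17, and Gzmk at -0.034 between ROR- strains. With median centring Gzma stood at -0.0061 and Gzmm at -0.0031 between iNKT17 strains, Gzmk at -0.040 between ROR- strains and Gzmm at 0.054 in iNKT17 minus γδ17. With array weights Gzma stood at -0.013 between iNKT17 strains and Gzmm at 0.0036 in the interaction; with the replicate block Gzmk stood at 0.017 and Gzmm at -0.0048 between iNKT17 strains. Leaving out each array in turn, Prf1 ranged from -0.079 to 0.18 in BALB/c, Gzmb from -0.12 to 0.14 and Gzmm from -0.33 to 0.13 in B6; in the interaction Gzmk ranged from -0.15 to 0.041, Gzmm from -0.28 to 0.18 and Prf1 from -0.20 to 0.058; between iNKT17 strains Gzma ranged from -0.30 to 0.41, Gzmk from -0.11 to 0.078 and Gzmm from -0.0035 to 0.12; between ROR- strains Gzmk ranged from -0.012 to 0.10, Gzmm from -0.12 to 0.34 and Prf1 from -0.15 to 0.11; in γδ17 minus ROR- Gzmk ranged from -0.17 to 0.066 and Gzmm from -0.27 to 0.19. The cause was not tested.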
